A study of Mus musculus with 8 samples.

Results

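The enzymes described here convert tryptophan to kynurenine and onward to NAD, or recycle and methylate nicotinamide. They are the 10 genes Tdo2, Ido2, Afmid, Kmo, Kynu, Haao, Acmsd, Qprt, Nampt and Nnmt, taken by gene symbol from the 33467 genes of the deposited expression table. Each symbol had 1 row, all 10 genes passed the filter on low counts, and none was chosen by a threshold on its values. Bulk RNA sequencing was done on liver of wild type C57BL/6J mice, with 4 animals on a standard diet (control) and 4 given 3,5-diethoxycarbonyl-1,4-dihydrocollidine (DDC) at 1% of their diet, both for 4 weeks. DDC is a porphyrinogenic feed additive used to produce cholestatic injury and biliary fibrosis. The 8 libraries carry the same batch label, and the labels give neither age nor sex of the animals. The gene that shares its symbol with the compound, Ddc, is not among these genes.

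The liver breaks down most of the body's dietary tryptophan through the kynurenine pathway. Tdo2 and Ido2 open the indole ring, Afmid releases kynurenine, and Kmo, Kynu and Haao carry it to an unstable semialdehyde. At that branch Acmsd diverts the carbon to full oxidation, while the part that escapes closes to quinolinate, which Qprt commits to NAD. Nampt instead rebuilds NAD from nicotinamide, and Nnmt removes nicotinamide by methylation with S-adenosylmethionine as the donor.

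In DDC livers the transcripts of the route from tryptophan to the semialdehyde were lower, and that of Nnmt was lowest relative to control. The transcripts of Qprt and Nampt, which make mononucleotide precursors of NAD, showed the smallest changes with the scaling used here. Qprt was 1.32-fold lower and Nampt had no call. DESeq2 size factors and upper-quartile factors gave the same calls. There the log2 fold changes were -0.40 and -0.33 for Qprt and -0.14 and -0.07 for Nampt. With library totals alone and on a scale of hepatocyte markers, both given below, Qprt and Nampt were higher in DDC. With library scaling by trimmed mean of M values (TMM), 9 of 10 genes fell and 0 rose (edgeR quasi-likelihood test, Benjamini-Hochberg adjusted p under 0.05 over all genes), whereas 26.6% of the 19535 genes tested fell and 30.2% rose. Their median log2 fold change was -1.29, against 0.073 over all genes tested. Of the 10, 7 fell at least 2-fold, as did 8.85% of all genes tested, and in 9 of 10 every DDC library lay below every control library, as in 25.7% of all genes tested. Below, rose and fell refer to this test, CPM is the usual depth-scaled count unit, here relative to the TMM-scaled library total, and fold changes compare DDC with control (n = 4 each).

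The size of these falls, and for some enzymes the direction, depended on how libraries were scaled. The direction changed for Qprt and Nampt with library totals alone. On the hepatocyte marker scale given below it changed for Qprt, Nampt, Acmsd and Afmid, where Afmid had no call. TMM factors were 0.792 to 0.815 in controls and 1.21 to 1.27 in DDC, and library totals were 61179103 to 64768950 and 63312756 to 81664058 counts. Scaled by library totals alone, all genes together moved up by a median of 0.623 on the log2 scale, 8.96% of genes fell and 58.9% rose. On that scale 7 of the 10 enzymes still fell and 4 of these did so at least 2-fold (3.52% of all genes). Qprt and Nampt rose on it, by 1.17-fold and 1.40-fold (edgeR adjusted p = 0.0107 and 4.31e-05), and Acmsd did not pass (log2 fold change -0.29, edgeR adjusted p = 0.051).

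**Figure D1:**
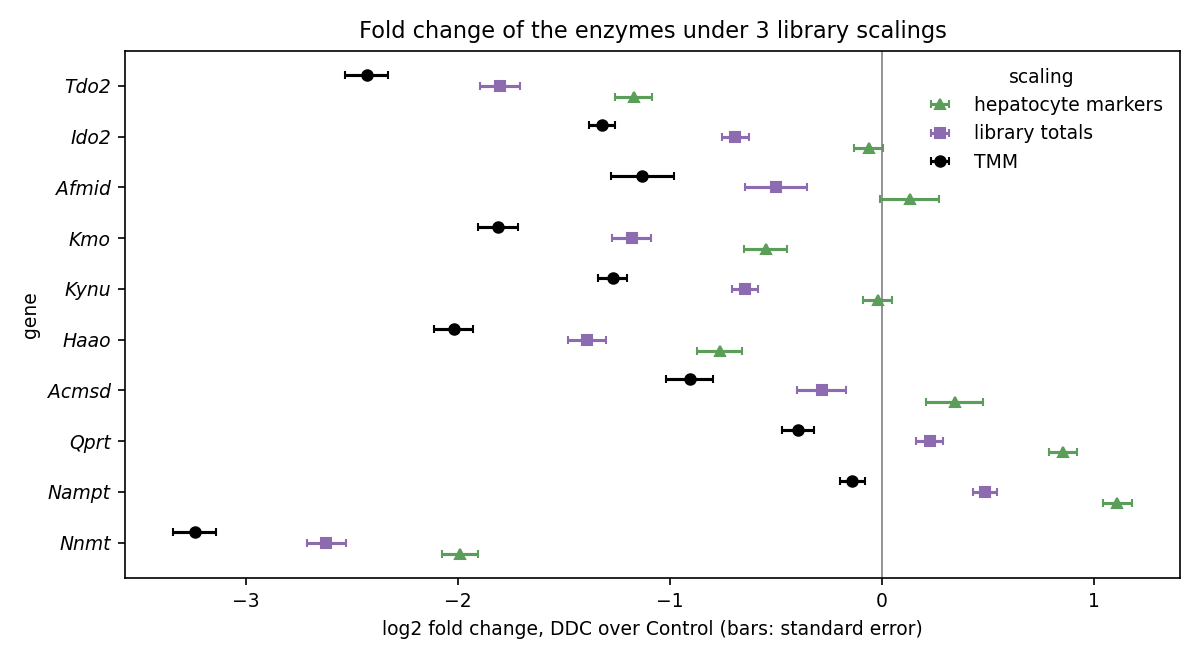
Log2 fold change (x axis, DDC over control, bars are standard errors) of each enzyme (y axis) with TMM scaling (circles), library totals alone (squares) and scaling to hepatocyte marker genes (triangles). Nnmt lies farthest left under each scaling, at -3.24, -2.62 and -1.99, and Nampt farthest right, at -0.14, 0.49 and 1.11.

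The tissue label was checked against cell type markers. All 7 hepatocyte markers found (Alb, Ttr, Apoa1, Apoa2, Apob, Serpina1a, Hnf4a) were abundant and all 7 fell, their summed level going from 128480 to 154500 CPM in controls to 56236 to 70934 CPM in DDC. Macrophage and monocyte markers rose in 8 of 8 cases, with sums of 140.03 to 174.54 CPM in controls and 1121 to 1223 CPM in DDC. Cholangiocyte markers rose in 5 of 6 (66.8 to 145 CPM, then 699 to 1073 CPM) and stellate cell and fibroblast markers in 6 of 6 (194 to 304 CPM, then 999.8 to 1185 CPM). Most of the cholangiocyte sum in DDC was Spp1, with means of 50.8 CPM in controls and 728 CPM in DDC. Krt7, Epcam, Sox9 and Cftr also rose, from means of 0.662 to 7.03 CPM in controls to 9.80 to 34.2 CPM in DDC. Krt19 did not pass, with means of 22.8 and 35.5 CPM and control 2 at 60.7 CPM. Neutrophil markers rose in 4 of 6 (25.1 to 39.2 CPM, then 92.2 to 123 CPM), endothelial markers in 3 of 6 (119 to 140.0 CPM, then 143 to 195 CPM), and T, NK and B cell markers in 2 of 7 with 3 falls (4.58 to 5.88 CPM, then 6.97 to 9.48 CPM). No marker found was at 0 in all libraries of a group. The size of the hepatocyte marker fall also depended on the scale. In the deposited FPKM, defined below, their sums were 47359 to 56585 in controls and 32248 to 39007 in DDC. In these whole-tissue libraries, fewer hepatocytes and less RNA of these markers per hepatocyte cannot be told apart. The part of cell composition in the enzyme changes was not tested.

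When libraries were instead scaled to the geometric mean count of the 7 hepatocyte markers, a scale chosen after the dependence on scaling was seen, the 10 enzymes divided into 3 sets. Nnmt, Tdo2, Haao and Kmo were lower than these markers, by 3.97-fold, 2.25-fold, 1.70-fold and 1.46-fold (edgeR adjusted p from 3.35e-08 to 0.000507). Ido2, Kynu and Afmid did not pass, with log2 fold changes of -0.062, -0.02 and 0.13. Acmsd, Qprt and Nampt were higher than these markers, by 1.27-fold, 1.81-fold and 2.16-fold (edgeR adjusted p = 0.0369, 8.92e-07 and 2.42e-07). On this scale 78.9% of all genes tested rose and 3.11% fell.

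Levels of different enzymes were compared per transcript length, in the deposited FPKM (fragments per kilobase of transcript, scaled to library depth), which carry no TMM factor. In controls Tdo2 was the most abundant at 407 ± 54.2 FPKM (SD, n = 4), followed by Nnmt at 174 ± 14.7, Haao at 78.9 ± 9.46, Kmo at 57.9 ± 3.37 and Qprt at 39.7 ± 2.19 FPKM. Afmid (28.6 ± 4.90 FPKM) and Nampt (25.8 ± 1.02 FPKM) overlapped between libraries, Kynu stood at 20.99 ± 1.17 FPKM, and Acmsd (13.5 ± 2.09 FPKM) and Ido2 (11.6 ± 0.331 FPKM) overlapped at the low end.

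In DDC livers the order of levels was different below Tdo2. Tdo2 remained first at 116 ± 1.32 FPKM, but Qprt (46.2 ± 2.55 FPKM) and Nampt (36.0 ± 1.42 FPKM) came next. Haao (29.9 ± 1.26 FPKM), Nnmt (28.1 ± 2.68 FPKM) and Kmo (25.4 ± 3.01 FPKM) followed, with each overlapping the next and Kmo overlapping Afmid at 20.1 ± 3.35 FPKM. Kynu, Acmsd and Ido2 kept the lowest places at 13.4 ± 0.690, 11.04 ± 0.961 and 7.12 ± 0.453 FPKM. Nnmt thus went from the second place to the fifth and Nampt from the seventh to the third. In FPKM the groups did not overlap for 6 enzymes that were lower (8.28% of all genes tested) and for 2, Qprt and Nampt, that were higher (54.0%), while Afmid and Acmsd overlapped.

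**Figure D2:**
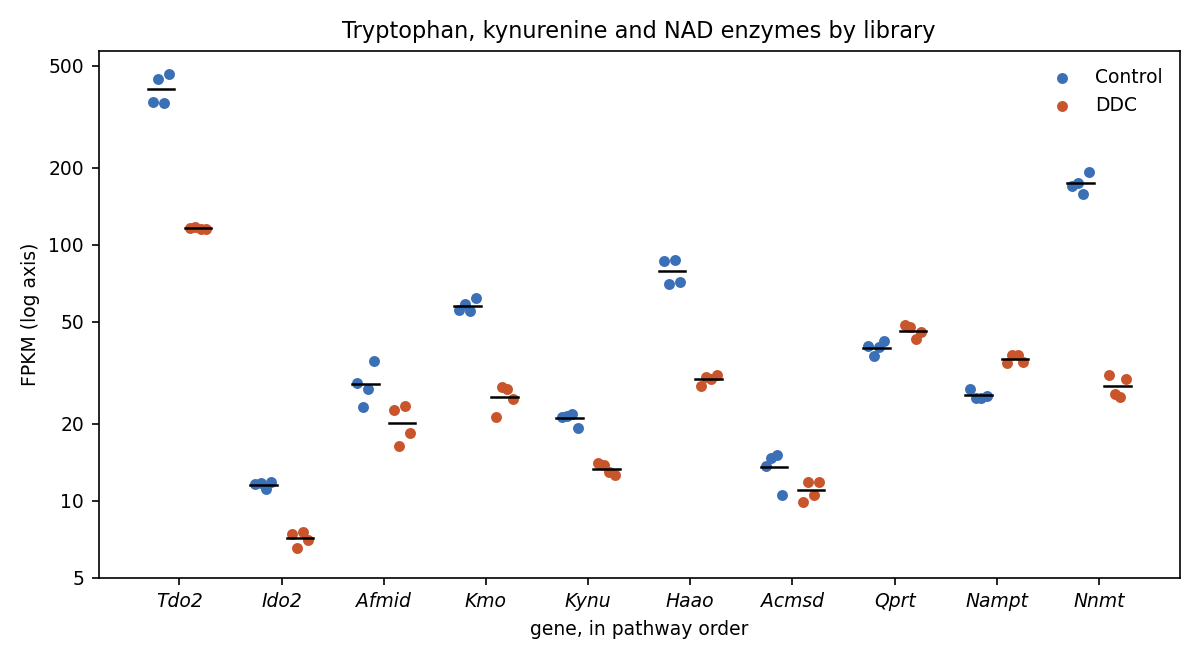
FPKM (y axis, log scale) of the 10 enzymes (x axis, in pathway order) in each of 4 control (blue) and 4 DDC (orange) libraries, with group means as black lines. The Tdo2 points lie between 359 and 463 FPKM in controls and between 115 and 118 FPKM in DDC, while the DDC points of Qprt and Nampt lie above those of control.

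Stretches upstream of the RefSeq start are shown for Haao and Nampt, where a long run of bases lay outside annotated untranslated regions. For Tdo2 and Qprt, where it did not, only 30 bases around a motif are shown. Kmo and Afmid had neither and are not shown. The stretches of Tdo2, Qprt and Nampt lie within the gene spans given below, and that of Haao lies outside its span. The 250 bases searched for Tdo2, Kmo and Nampt also lie within those spans. RefSeq promoters (GRCm38.p6) were used for 6 of the 10 genes, Tdo2, Afmid, Kmo, Haao, Qprt and Nampt. Capitals mark matches to a searched motif, bases run 5′ to 3′ on the gene's strand, and lower case is all other sequence.
Tdo2, chr3:81975887-81975916, minus strand: ctgctagcaaACAAGCTGTgccccaacaaa
Haao, chr17:83846813-83847040, minus strand: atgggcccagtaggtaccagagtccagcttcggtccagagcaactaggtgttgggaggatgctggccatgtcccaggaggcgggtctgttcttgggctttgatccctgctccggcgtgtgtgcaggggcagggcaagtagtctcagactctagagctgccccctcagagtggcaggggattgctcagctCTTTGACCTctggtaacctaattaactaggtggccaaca
Qprt, chr7:127122086-127122115, minus strand: taggaaggacTGACCCAGCtcggcccctcc
Nampt, chr12:32820085-32820334, plus strand: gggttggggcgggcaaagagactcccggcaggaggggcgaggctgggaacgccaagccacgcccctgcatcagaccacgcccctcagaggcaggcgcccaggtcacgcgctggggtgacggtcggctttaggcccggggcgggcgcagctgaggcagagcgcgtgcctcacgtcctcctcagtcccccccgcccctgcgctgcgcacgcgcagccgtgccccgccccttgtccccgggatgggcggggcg

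The 250 bases before the start differed in composition between these enzymes. That of Nampt held 75.6% G and C with 27 CpG dinucleotides, and that of Kmo 42.8% with 5. Tdo2 held 46.4% with 3, Haao 58.4% with 6, Qprt 60.8% with 6 and Afmid 59.6% with 15, against medians of 52.4% and 6 over 32851 promoters. The bases just after the Afmid start were not found in an annotated Afmid transcript, whereas those of the other genes searched were found in theirs. Motifs were searched on both strands of these 250 bases. The glucocorticoid response element ACANNNTGT was found in Tdo2, at 178 to 170 bases before the start, and in 5.84% of all promoters. The TATA box TATAAA was also found in Tdo2 (12.4% of all promoters), at 229 to 224 bases before the start. The nuclear receptor direct repeat core AGGTCANAG was found in Haao on the opposite strand (1.75%), and the NRF2 element TGACNNNGC in Qprt (10.2%).

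The other motifs had no match in the 6 promoters. They were the HNF1 core GTTAATNAT (0.737% of all promoters), the HNF4A core CAAAGTCCA (0.384%), the C/EBP palindrome TTGCGCAA (0.164%) and its looser core TTGCNNAA, which can overlap it (9.56%). The E-box CACGTG (6.02%), the AP-1 site TGANTCA (6.75%), the NF-kB core GGNNTTTCC (4.93%) and the aryl hydrocarbon receptor core TNGCGTG (4.10%) had none either. These matches describe letters in short windows and are not evidence of binding.

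Tdo2, the hepatic dioxygenase that opens the tryptophan ring (ENSMUSG00000028011, chromosome 3, 81957090 to 81976202 in GRCm38), was 1812, 2183, 1773 and 2356 CPM in controls 1 to 4. In DDC 1 to 4 it was 384, 392, 366 and 368 CPM. Controls 2 and 4 stood above controls 1 and 3, the DDC values lay within a narrow band, and the groups were far apart. Tdo2 fell 5.38-fold (edgeR adjusted p = 1.25e-07), a log2 fold change of -2.43 with an SE of 0.10.

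Ido2, a second dioxygenase with low affinity for tryptophan (ENSMUSG00000031549, chromosome 8, 24531892 to 24576333), was 54.4, 54.1, 51.3 and 56.3 CPM in controls and 23.0, 20.4, 22.4 and 21.03 CPM in DDC. All DDC values lay under all control values, with little spread in either group. Ido2 fell 2.49-fold (log2 fold change -1.32, SE 0.06, edgeR adjusted p = 1.83e-07). Its interferon-induced relative Ido1 was at the edge of detection, with 3 counts in control 2, 4 counts in DDC 3 and 0 in the other 6 libraries, and was not tested.

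Afmid, the formamidase that yields kynurenine (ENSMUSG00000017718, chromosome 11, 117825924 to 117839908), was 131, 104, 124 and 163 CPM in controls and 67.7, 49.7, 67.8 and 53.5 CPM in DDC. Its groups were apart but its spread among controls was wide. Afmid fell 2.19-fold (log2 fold change -1.13, SE 0.15, edgeR adjusted p = 0.000168). It shares 13981 bases with Gm20708, a gene on the same strand, so their reads could be divided between them. Gm20708 was 36.5, 28.6, 31.7 and 1.22 CPM in controls 1 to 4, lowest in the control where Afmid was highest. With both genes summed the controls were 167, 133, 155 and 164 CPM, DDC 89.4, 62.1, 68.0 and 68.2 CPM, and the log2 fold change was -1.11 (edgeR adjusted p = 3.93e-05).

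Kmo, the mitochondrial monooxygenase that hydroxylates kynurenine (ENSMUSG00000039783, chromosome 1, 175620381 to 175660853), was 337, 351, 331 and 386 CPM in controls. In DDC it was 85.3, 113, 106 and 97.4 CPM, lowest in DDC 1. Kmo fell 3.50-fold (log2 fold change -1.81, SE 0.10, edgeR adjusted p = 3.90e-07). It shares 5255 bases with Fh1 on the opposite strand, which went from 459.9 ± 12.7 to 121 ± 8.84 CPM (n = 4 each). The sources used here do not say whether counting was strand-specific, which leaves reads of this overlap uncertain.

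Kynu, the hydrolase that cleaves alanine from hydroxykynurenine (ENSMUSG00000026866, chromosome 2, 43555329 to 43682715), was 169, 167, 171 and 155 CPM in controls and 73.6, 72.7, 65.1 and 64.1 CPM in DDC. The groups were well apart. Kynu fell 2.41-fold (log2 fold change -1.27, SE 0.07, edgeR adjusted p = 3.82e-07).

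Haao, the dioxygenase that makes the semialdehyde at the branch (ENSMUSG00000000673, chromosome 17, 83831156 to 83846812), was 522, 415, 522 and 438 CPM in controls. In DDC it was 112, 123, 115 and 119 CPM. Controls 1 and 3 stood above controls 2 and 4, the reverse of Tdo2, and every DDC value was under every control value. Tat, Kyat3 and Tsc22d3, named below, were likewise higher in controls 1 and 3, and Kyat1 and Aox3 in controls 2 and 4. The source of this split among controls was not tested. Haao fell 4.04-fold (log2 fold change -2.02, SE 0.09, edgeR adjusted p = 1.69e-07).

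Acmsd, the decarboxylase that draws the semialdehyde away from NAD synthesis (ENSMUSG00000026348, chromosome 1, 127729413 to 127767978), was 50.0, 52.9, 54.4 and 39.0 CPM in controls and 23.9, 28.7, 24.5 and 27.7 CPM in DDC. Control 4 was the lowest control yet stood above all DDC values. Acmsd fell 1.87-fold (log2 fold change -0.91, SE 0.11, edgeR adjusted p = 8.72e-05), a call that was absent with library totals alone and of the opposite direction on the hepatocyte marker scale, as given above. A gene on the opposite strand within its span, 2900009J06Rik, held at most 0.156 CPM on average in either group.

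Qprt, the transferase that joins quinolinate to phosphoribose (ENSMUSG00000030674, chromosome 7, 127107114 to 127122226), was 137, 123, 134 and 145 CPM in controls and 109, 108, 93.0 and 99.3 CPM in DDC. The groups were apart by a small margin. Qprt fell 1.32-fold with TMM scaling (log2 fold change -0.40, SE 0.07, edgeR adjusted p = 0.00141). It also fell with DESeq2 size factors and upper-quartile factors (edgeR adjusted p = 0.00168 and 0.00341). Qprt was higher in DDC with library totals alone, in FPKM, which carry the same scale, and on the hepatocyte marker scale. Its direction in liver RNA as a whole therefore depended on the scale.

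Nampt, the rate-limiting enzyme of nicotinamide salvage (ENSMUSG00000020572, chromosome 12, 32819545 to 32853349), was 178, 161, 162 and 170.1 CPM in controls and 148, 162, 154 and 145 CPM in DDC. The groups overlapped. Nampt did not pass (log2 fold change -0.14, SE 0.06, edgeR adjusted p = 0.0721), although DESeq2 gave it as lower (log2 fold change -0.14, adjusted p = 0.0254). It was higher in DDC with library totals alone, in FPKM, which carry the same scale, and on the hepatocyte marker scale.

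Nnmt, the methyltransferase that clears nicotinamide (ENSMUSG00000032271, chromosome 9, 48591877 to 48605153), was 345, 349, 316 and 398 CPM in controls and 41.4, 35.4, 33.0 and 38.9 CPM in DDC. Its lowest control stood far above its highest DDC value. Nnmt fell 9.47-fold (edgeR adjusted p = 3.70e-08), a log2 fold change of -3.24 with an SE of 0.10 and the largest among the 10 enzymes, and fell 6.15-fold with library totals alone.

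Leaving out any 1 of the 8 libraries ended none of the 9 calls and gave none to Nampt (edgeR adjusted p from 0.0528 to 0.205). Across these omissions the log2 fold change of Nnmt ran from -3.32 to -3.18, that of Tdo2 from -2.50 to -2.36 and that of Qprt from -0.45 to -0.34.

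Ratios between enzymes within a library do not depend on library scaling and were compared for 5 pairs. Each was tested by exact permutation of the 70 possible group assignments, two-sided, with Benjamini-Hochberg adjustment over the 5 pairs, and the smallest unadjusted p this allows is 0.0286. Nnmt stood at 6.23, 6.96, 6.25 and 7.51 times the FPKM of Nampt in controls 1 to 4. In DDC the ratio was 0.894, 0.703, 0.688 and 0.858. The excess of the methylating over the salvaging transcript was thus turned over in every DDC library, the ratio being 8.61-fold lower (exact permutation p = 0.0286, adjusted p = 0.0357, n = 4 each).

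The ratio of Tdo2 to Ido2 was 31.2, 37.8, 32.4 and 39.2 in controls and 15.7, 18.03, 15.3 and 16.4 in DDC, so Tdo2 fell further than Ido2. It was 2.15-fold lower (exact permutation p = 0.0286, adjusted p = 0.0357, n = 4 each). The ratio of Kynu to Kmo was 0.384, 0.366, 0.398 and 0.310 in controls and 0.663, 0.493, 0.472 and 0.505 in DDC, highest in DDC 1. It was 1.46-fold higher (exact permutation p = 0.0286, adjusted p = 0.0357, n = 4 each).

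At the branch point, the ratio of Acmsd to Qprt was 0.340, 0.402, 0.379 and 0.251 in controls and 0.204, 0.247, 0.246 and 0.261 in DDC. Control 4 lay within the DDC range. The ratio was 1.42-fold lower on average and did not pass (exact permutation p = 0.0571, adjusted p = 0.0571, n = 4 each), but passed without control 4 (log2 difference -0.64, exact permutation adjusted p = 0.0357, 3 against 4). The ratio of Nampt to Qprt was 0.678, 0.685, 0.632 and 0.613 in controls and 0.712, 0.780, 0.865 and 0.767 in DDC. It was 1.196-fold higher (exact permutation p = 0.0286, adjusted p = 0.0357, n = 4 each), and without control 1, 2, 3 or 4 it did not pass (exact permutation adjusted p = 0.0571, log2 differences of 0.23 to 0.28).

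**Figure D3:**
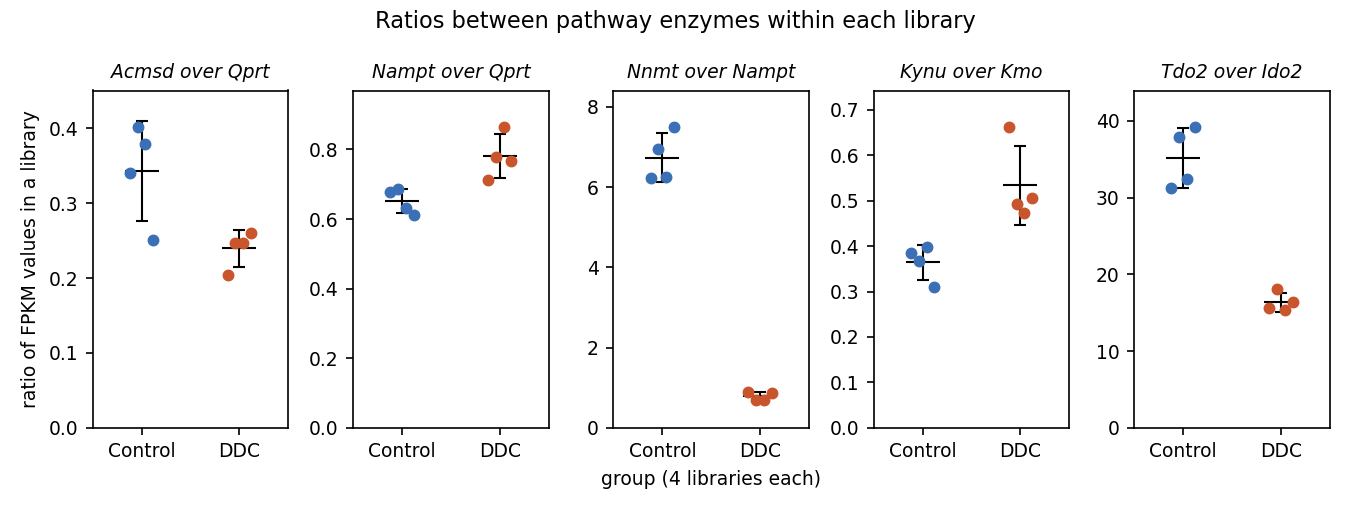
Ratio of FPKM values (y axes, from 0) for 5 pairs of enzymes in each control (blue) and DDC (orange) library, with mean and SD in black. The Nnmt to Nampt ratio lies between 6.23 and 7.51 in controls and between 0.688 and 0.894 in DDC, and the Acmsd to Qprt ratio of control 4, 0.251, lies among the DDC values.

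The remaining enzymes of the kynurenine pathway were also lower in DDC. Of 8 listed, 7 were tested and all 7 fell (median log2 fold change -1.43, against 0.073 over all genes tested, of which 26.6% fell). Kyat1 and Kyat3, aminotransferases that make kynurenate, fell 3.32-fold (134 ± 29.0 to 40.5 ± 8.58 CPM, edgeR adjusted p = 9.04e-05) and 2.87-fold (402 ± 52.1 to 140.0 ± 18.6 CPM, edgeR adjusted p = 5.22e-06). Acat1, a thiolase at the end of the oxidative branch, fell 2.95-fold (320 ± 42.0 to 108 ± 13.7 CPM, edgeR adjusted p = 3.02e-06). With library totals alone 6 of the 7 fell and 0 rose, where 8.96% of all genes tested fell and 58.9% rose. On the hepatocyte marker scale 2 fell and 1 rose, where 3.11% of all genes tested fell and 78.9% rose. Kyat1 and Kyat3 were no longer called on that scale (edgeR adjusted p = 0.0525 and 0.0925).

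Of 8 genes that transport tryptophan and nicotinamide precursors 3 rose and 3 fell, with a median log2 fold change of 0.34. These counts lie near the shares of all genes tested (30.2% rose and 26.6% fell). Slc7a8, an exchanger of neutral amino acids, rose 8.98-fold, from 4.25 ± 1.02 to 38.2 ± 1.56 CPM (n = 4 each; edgeR adjusted p = 2.74e-07). Slc3a2, the heavy chain partner of such exchangers, rose 1.32-fold (59.5 ± 4.93 to 78.3 ± 7.04 CPM) and Slc36a4, an amino acid transporter, 1.65-fold (10.6 ± 2.13 to 17.5 ± 1.89 CPM). Slc16a10, which carries aromatic amino acids, fell 3.62-fold, from 236 ± 5.19 to 65.1 ± 2.08 CPM (edgeR adjusted p = 3.00e-08). Slc22a7, an organic anion transporter, fell 5.00-fold (15.3 ± 3.07 to 3.06 ± 1.19 CPM), and Slc29a1, a nucleoside transporter, 3.16-fold (327 ± 35.8 to 104 ± 0.578 CPM).

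Among 12 genes of later NAD synthesis and salvage 7 fell and 1 rose, with a median log2 fold change of -0.67, where 26.6% of all genes tested fell and 30.2% rose. Slc25a51, the mitochondrial NAD carrier, fell 4.02-fold, from 301 ± 45.9 to 74.8 ± 4.06 CPM (edgeR adjusted p = 4.33e-07). Nadk2, the mitochondrial NAD kinase, fell 2.46-fold (160 ± 4.72 to 65.2 ± 3.37 CPM), a call that ended on the hepatocyte marker scale (log2 fold change -0.047, edgeR adjusted p = 0.462). Naprt, which starts NAD synthesis from nicotinate, fell 1.99-fold (85.0 ± 5.84 to 42.8 ± 3.397 CPM) but was higher than the hepatocyte markers (log2 fold change 0.26). Nmnat3, a mitochondrial adenylyltransferase, rose 1.40-fold (4.44 ± 0.929 to 6.20 ± 0.383 CPM, edgeR adjusted p = 0.0332). That call ended without control 2, control 3 or any 1 DDC library (edgeR adjusted p from 0.0513 to 0.083), and with the replicate number as a block (edgeR adjusted p = 0.0519). With library totals alone 3 genes of the list fell and 4 rose, where 8.96% of all genes tested fell and 58.9% rose. Nnt, the mitochondrial transhydrogenase, had 2 rows over the same locus whose counts were divided differently between libraries, and the row kept was 0 CPM in controls 1 and 2 and did not pass (edgeR adjusted p = 0.746). With both rows summed, Nnt was 184, 188, 180.03 and 188 CPM in controls and 67.2, 72.3, 62.7 and 65.2 CPM in DDC. The sum fell 2.77-fold (edgeR adjusted p = 9.97e-08), which makes 8 falls in the list.

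Of 16 NAD consuming enzymes 6 rose and 5 fell, near the shares of all genes (30.2% and 26.6%). Cd38, an ectoenzyme that hydrolyses NAD and is abundant on immune cells, rose 2.91-fold, from 14.2 ± 0.668 to 41.2 ± 3.10 CPM (edgeR adjusted p = 2.05e-07). Its relative Bst1 rose 2.70-fold (1.75 ± 0.341 to 4.73 ± 0.572 CPM) and Parp3, a DNA damage ADP-ribosyltransferase, 2.04-fold (20.7 ± 1.44 to 42.2 ± 3.402 CPM). Macrophage and monocyte marker sums rose in the same libraries, as given above, and their part in the Cd38 and Bst1 values was not tested. Sirt3, the main mitochondrial deacetylase, fell 3.54-fold, from 110.4 ± 2.90 to 31.2 ± 1.56 CPM (edgeR adjusted p = 3.70e-08), and Sirt1, a nuclear deacetylase, 2.50-fold (25.6 ± 3.99 to 10.2 ± 0.338 CPM). The call of Sirt1 ended on the hepatocyte marker scale (log2 fold change -0.07, edgeR adjusted p = 0.629). Sirt5, a mitochondrial desuccinylase, fell 1.42-fold with TMM, but its log2 fold change was 0.12 when only totals were used. On that scale 11 genes of the list rose and 2 fell, where 58.9% of all genes tested rose and 8.96% fell.

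Partners of Nnmt in methyl group metabolism fell in 4 of 6 cases with 0 rises, at a median log2 fold change of -1.28, where 26.6% of all genes tested fell and 30.2% rose. Ahcy, which removes the S-adenosylhomocysteine that methyltransferases leave, fell 3.71-fold, from 3120 ± 56.3 to 841 ± 56.6 CPM (edgeR adjusted p = 5.76e-08). Gnmt, the abundant glycine methyltransferase of hepatocytes, fell 3.02-fold (1813 ± 189 to 599.6 ± 86.0 CPM), and Aox3, an aldehyde oxidase that acts on methylnicotinamide, fell 2.65-fold (319 ± 122 to 121 ± 10.97 CPM), a call that ended on the hepatocyte marker scale (log2 fold change -0.14, edgeR adjusted p = 0.58). With library totals alone 4 fell and 2 rose (8.96% and 58.9% of all genes tested).

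Kynurenine and kynurenate are ligands of the aryl hydrocarbon receptor. Of 8 genes of the receptor and its targets 3 rose and 1 fell (median log2 fold change 0.25), beside 30.2% and 26.6% of all genes tested. Nqo1, a quinone reductase that NRF2 also induces, rose 3.87-fold (6.96 ± 2.35 to 26.9 ± 7.82 CPM, edgeR adjusted p = 0.000336), and Cyp1b1 rose 3.26-fold (1.48 ± 0.266 to 4.84 ± 0.912 CPM, edgeR adjusted p = 0.000108). Cyp1a1 rose 3.49-fold (1.95 ± 0.342 to 6.81 ± 6.50 CPM, edgeR adjusted p = 0.0213), with DDC 1 at 16.5 CPM and the other DDC libraries at 3.09 to 4.09 CPM. Without DDC 1 its log2 fold change went from 1.80 to 0.85 (edgeR adjusted p = 0.00778). Without control 1 or control 4 it did not pass (edgeR adjusted p = 0.0528 and 0.0599), nor with limma voom (adjusted p = 0.134), and DESeq2 gave it no adjusted p. Arnt, the receptor's dimer partner, fell 1.38-fold with TMM and rose with library totals alone (log2 fold change 0.16, edgeR adjusted p = 0.0362), where 7 genes of the list rose and 0 fell, beside 58.9% and 8.96% of all genes tested.

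Tdo2 is a known glucocorticoid-induced gene, and of 7 genes of the glucocorticoid receptor and its targets 5 fell and 1 rose (median log2 fold change -0.67), where 26.6% of all genes tested fell and 30.2% rose. Tat, the tyrosine aminotransferase that hormones induce together with Tdo2, fell 5.14-fold, from 6236 ± 1080 to 1214 ± 118 CPM (edgeR adjusted p = 5.52e-07), close in size to Tdo2. Tsc22d3, which encodes the leucine zipper protein GILZ, fell 2.20-fold (219 ± 79.3 to 99.9 ± 13.7 CPM) and Fkbp5, a receptor co-chaperone, 1.70-fold (192 ± 24.9 to 113 ± 23.4 CPM), but both lost their calls with library totals alone (edgeR adjusted p = 0.104 and 0.363) and had log2 fold changes above 0 on the hepatocyte marker scale (0.11 and 0.48). Sgk1, a kinase, rose 1.83-fold (46.9 ± 4.39 to 85.7 ± 4.67 CPM, edgeR adjusted p = 9.13e-06). With library totals alone Tat was the only gene of this list to fall, and Sgk1 the only gene to rise (8.96% and 58.9% of all genes tested). On the hepatocyte marker scale 4 of the 7 rose and 1 fell, where 78.9% of all genes tested rose and 3.11% fell. Any part of glucocorticoid signalling in the Tdo2 and Tat values was not tested.

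**Figure D4:**
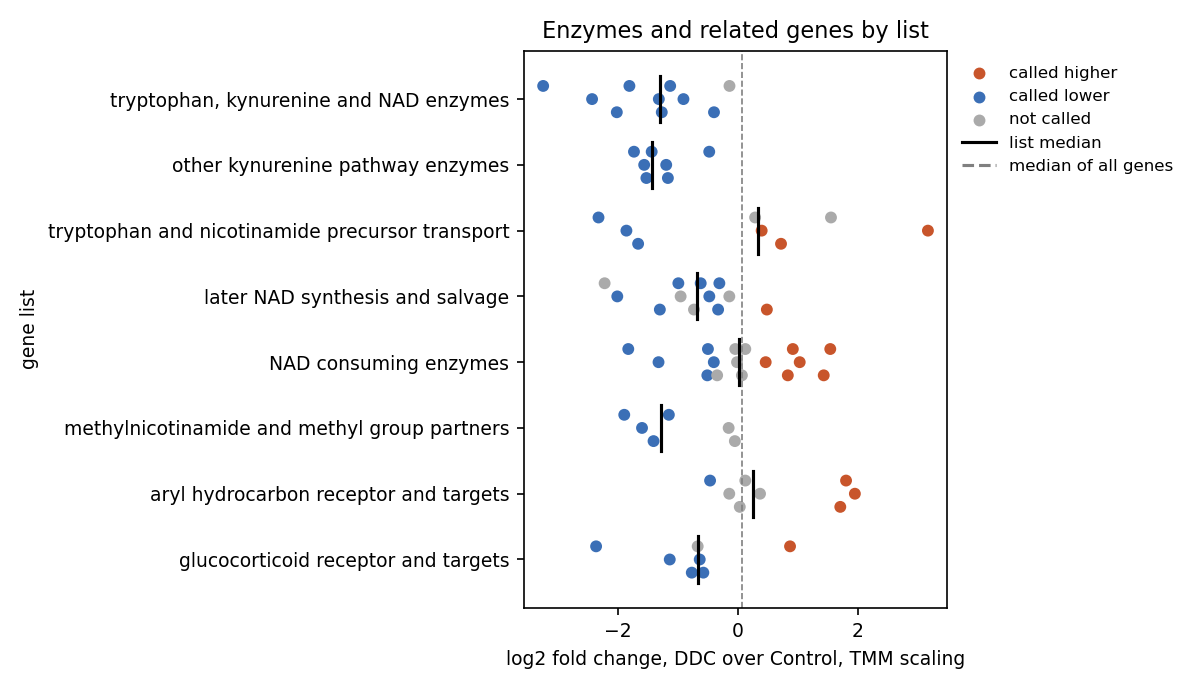
Log2 fold change (x axis, DDC over control, TMM scaling) of each tested gene in the 10 enzymes and 7 related lists (y axis), with genes that rose in orange, genes that fell in blue and others in grey. Black bars mark list medians, from -1.43 for the other kynurenine pathway enzymes to 0.34 for transport, and the dashed line marks the median of all genes at 0.073.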

How the data were processed

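Gene counts, deposited by the authors as whole numbers that were not normalized, covered 55401 genes in 8 libraries, and FPKM, deposited by the authors, covered 33467 genes beside the same counts. The build GRCm38 (mm10) and the programs HISAT2, StringTie, DESeq2, cutadapt and FastQC, without versions or roles, come from what the submitters' processing notes name. Per the labels' protocols, polyadenylated RNA gave dUTP libraries read in pairs. Counts of 4 occurred 9247 times, against 4091 for 3 and 2965 for 5, and 8, 12, 16 and 20 were likewise favoured over their neighbours, so 1 count need not be 1 fragment and no counting interval is given.

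The counts of all genes were fitted with edgeR 4.0.16 (R 4.3.3) using TMM, filterByExpr and robust quasi-likelihood, two-sided, with no covariate, and adjusted by Benjamini-Hochberg. The fit was tested on simulated data. The simulation changed few genes and left out the group difference in TMM factors, so it does not bear on the scaling. Standard errors are the log2 fold change over the square root of F. Alternatives were DESeq2 1.42.0, limma 3.58.1 (voom, and log2 FPKM with pseudocounts of 0.1 and 1), other scalings and filters, and omission of each library. A further 4, counts divided by 4, hepatocyte marker scaling, the sum of Afmid with Gm20708 and the sum of both Nnt rows, were chosen after seeing the data. Motifs were searched in RefSeq promoters oriented by gene strand. The promoter of Acmsd is not reported here.

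The genes and lists were chosen with earlier results of these data known. Named genes are the 10 enzymes and, from each list, up to 3 called genes in each direction with at least 1 CPM. Ido1, Nnt, Fh1, Gm20708, 2900009J06Rik, Cyp1a2, Ahr, Ahrr and Tiparp were added after their values were seen. The marker Tf had no row under that symbol.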

Additional observations from a re-analysis of the deposited data

Results flagged for a closer look

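In each group of 4 the library farthest from its neighbour was compared with Dixon's critical value, for 90 groups of values. Chance alone places about 1 in 20 groups past it, and 5 were past it, none of them among the 10 enzymes or their 5 ratios. The comparison looks for 1 library apart, so it does not find the split among controls given for Haao. Cyp1a1 reached 16.5 CPM in DDC 1, while the other DDC libraries held 3.09 to 4.09 CPM. Nqo1 reached 38.6 CPM in DDC 1, against 22.01 to 24.1 CPM, so both targets were highest in the same animal. Slc7a8 was 35.9 CPM in DDC 3 against 38.8 to 39.3 CPM, Slc36a4 was 13.8 CPM in control 3 against 9.33 to 9.77 CPM, and Parp3 was 18.5 CPM in control 1 against 21.2 to 21.5 CPM.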

How the results depend on the processing

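Counts of genes that rose or fell were within 1.5 times of their main values with DESeq2 size factors, upper-quartile factors, both other filters, DESeq2, limma voom and counts divided by 4. None of the 10 enzymes had more than 1 row, so the planned sum of duplicate rows applied to none of them. Summing the rows of Nnt, chosen after seeing the data, gave 8 falls and 1 rise among later NAD genes. With library totals alone 11505 genes rose and 1750 fell (86.8% of calls higher, against 53.1% with TMM). There 2 of the 10 enzymes rose, 4 later NAD genes rose and 3 fell, 11 NAD consumers rose and 2 fell, 2 methyl group partners rose, 7 aryl hydrocarbon receptor genes rose and 0 fell, and 1 glucocorticoid gene fell. Qprt was at 0.226, Nampt at 0.485, Sirt5 at 0.116 and Arnt at 0.161 (log2 fold changes).

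The FPKM fits carry the same scale. With a pseudocount of 0.1, 11973 genes rose and 1831 fell, and with 1 the counts were 11944 and 1807. In both, 2 enzymes rose, 5 transport genes rose, 4 later NAD genes rose and 4 fell, 11 NAD consumers rose and 2 fell, 2 methyl group partners rose, 6 receptor genes rose and 0 fell, and 1 glucocorticoid gene fell. Qprt was at 0.219 and 0.214, Nampt at 0.476 and 0.463, Sirt5 at 0.112 and 0.0704, and Arnt at 0.154 and 0.133.

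Scaled to hepatocyte markers, 15411 genes rose and 607 fell (96.2% of calls higher). Of the enzymes 3 rose and 4 fell. Other kynurenine enzymes rose in 1 case and fell in 2, transport genes rose in 5, later NAD genes rose in 7 and fell in 1, NAD consumers rose in 13 and fell in 1, methyl group partners rose in 2 and fell in 2, receptor genes rose in 8 and fell in 0, and glucocorticoid genes rose in 4 and fell in 1. Log2 fold changes above 0, against below 0 with TMM, were Afmid at 0.13, Acmsd at 0.342, Qprt at 0.853, Nampt at 1.11, Naprt at 0.263, Sirt5 at 0.744, Arnt at 0.789, Fkbp5 at 0.479 and Tsc22d3 at 0.109.

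With each library left out, rises among later NAD genes numbered 0 to 1 and falls among receptor genes 1 to 2, the log2 ratio of Acmsd to Qprt ran from -0.644 to -0.417 and that of Nampt to Qprt from 0.208 to 0.302. The replicate numbers did not pair the samples (correlations of same-numbered deviations of -0.26, -0.225, 0.0301 and -0.0939). With the replicate block 0 later NAD genes rose, against 1. Within replicate numbers the smallest exact permutation p is 0.125, so no log2 ratio could pass, at 0.259 for Nampt to Qprt, -3.11 for Nnmt to Nampt, 0.543 for Kynu to Kmo and -1.10 for Tdo2 to Ido2 (exact permutation adjusted p = 0.156 for each).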

Other observations

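The deposited table assigns genes to KEGG pathways, which gives a wider view than the lists above. Of 36 tryptophan metabolism genes other than the enzymes described, 32 were tested, 21 fell (65.6%, against 26.6% of all genes tested) and 4 rose, with a median log2 fold change of -1.14. Of 32 other nicotinate and nicotinamide metabolism genes 28 were tested, 12 fell (42.9%) and 7 rose, with a median of -0.32. These groupings were read after the values of the 10 enzymes were seen, and many of their genes also belong to other pathways of amino acid and fatty acid breakdown.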
